A study of Mus musculus with 24 samples.

Results

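Vpreb1, Vpreb3, Igll1, Rag1, Rag2 and Dntt are 6 genes of the surrogate light chain and of V(D)J recombination, taken by the gene symbols of the array platform from 19938 genes measured. Each had 1 probe set on the array, and all 6 were followed over 24 Affymetrix mouse gene arrays, 1 per mouse sample. The study set bone marrow with BCR/ABLp190 leukaemia, with or without loss of a Pax5 copy, against B cells of wild-type mice, and did the same for B cell precursors before leukaemia. Its title names a role of Pax5 in the metabolic shift of this leukaemia, and the genes described here are normally used in B cell precursors.

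The 6 groups were as follows. Tumour-bearing bone marrow came from 7 Sca1-BCR/ABLp190+Pax5+/- mice, called Pax5-heterozygous leukaemias below, and from 2 Sca1-BCR/ABLp190 mice, called leukaemias with both Pax5 copies. In these mice the Sca1 promoter, which is active in blood stem and progenitor cells, drives the fusion oncogene. B220+ bone marrow B cells came from 5 wild-type (WT) mice. Pro-B and pre-B cells came from 3 Sca1-BCR/ABLp190+Pax5+/- mice and 3 Sca1-BCR/ABLp190 mice before leukaemia, and from 4 WT samples, although the design text of the series counts 3 WT mice in this set. All mice were kept in a conventional facility with exposure to common pathogens, and the labels give no age, sex or strain. The labels name no sort for the leukaemic marrow. They call the replicates biological, and the p-values below measure the spread between these samples, estimated jointly over all groups of a fit.

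A B cell builds its antigen receptor genes in steps. RAG1 and RAG2 together form the recombinase that cuts DNA at the borders of V, D and J segments, general end-joining proteins close the breaks, and terminal deoxynucleotidyl transferase (TdT, encoded by Dntt) adds untemplated bases at the joints of the heavy chain gene in pro-B cells. Once a heavy chain is made, it pairs with the surrogate light chain, built from VpreB (Vpreb1, Vpreb2) and lambda5 (Igll1), and the resulting pre-B cell receptor tests the chain and drives a burst of division. Vpreb3 encodes a related protein that binds heavy chains early in their assembly. Recombinase and surrogate light chain are normally switched off as the cell matures, and in the clinic TdT marks precursor leukaemias.

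Expression is given as the deposited log2 level per gene, so a difference of 1 is a factor of 2. Levels are compared between arrays for the same gene and never between genes. Differences were tested with limma, and adjusted p-values are Benjamini-Hochberg values over all 19938 genes, with 0.05 as the threshold. Correlations between arrays over all probe sets ranged from 0.906 to 0.995. As a check of the labels, the mean of 11 B lineage markers (Cd79a, Cd79b, Cd22, Cd72, Ms4a1, Blk, Blnk, Ebf1, Pou2af1, Fcrla and Cd24a) was 12.36 to 12.51 in the B220+ cells and 11.69 to 12.07 in the 10 precursor arrays. It was 8.98 to 10.61 in the Pax5-heterozygous leukaemias and 9.0 and 9.20 in the leukaemias with both copies. In bulk marrow, fewer B lineage cells and less RNA of a gene per cell cannot be told apart. Some marker lists of other cells were higher in leukaemic marrow than in wild-type precursors. In the Pax5-heterozygous leukaemias 9 of 11 monocyte and macrophage markers passed the test as higher, beside 12.7% of all genes. List means were 7.89 to 10.11 against 6.65 to 6.89. Of 10 stroma and endothelium markers 8 were higher and 1 lower, and 5 of 6 megakaryocyte markers were higher. Of 8 NK cell markers 0 were higher and 2 lower, beside 19.6% of all genes called lower. No neutrophil or erythroid marker was called there. In the leukaemias with both copies 6 of 12 neutrophil markers were higher, beside 9.36% of all genes, with means of 12.47 and 11.90 against 7.46 to 9.59. There too 0 of 8 NK cell markers were higher and 2 lower, beside 12% of all genes called lower.

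Of the 6 genes Rag1, Vpreb3 and Rag2, in that order, fell furthest in the Pax5-heterozygous leukaemias against either wild-type group. Against B220+ cells 3 of the 6 genes were lower (Vpreb3, Rag1 and Rag2), while 18.9% of all genes were called lower in that comparison and 31.8% in either direction. Against wild-type precursors all 6 were lower, beside 19.6% of all genes called lower. The median difference of the 6 was -2.52 against B220+ cells and -3.16 against wild-type precursors, where the medians over all genes were -0.060 and -0.051. The leukaemias with both copies had medians of -3.30 and -3.73, with 4 of 6 lower than in B220+ cells (Vpreb1, Vpreb3, Rag1 and Rag2, beside 11.9% of all genes called lower) and 5 of 6 lower than in wild-type precursors (all except Dntt, beside 12% of all genes). These leukaemia comparisons share control arrays with each other. In the precursors 0 of 6 passed limma in any comparison among the 3 precursor groups. Of all genes 4.17% were called in Pax5-heterozygous against wild-type precursors and 27.1% in those with both copies against wild type. Between the oncogene-bearing precursors it was 0.0251%, so few that 0 of 6 says little there.

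**Figure D1:**
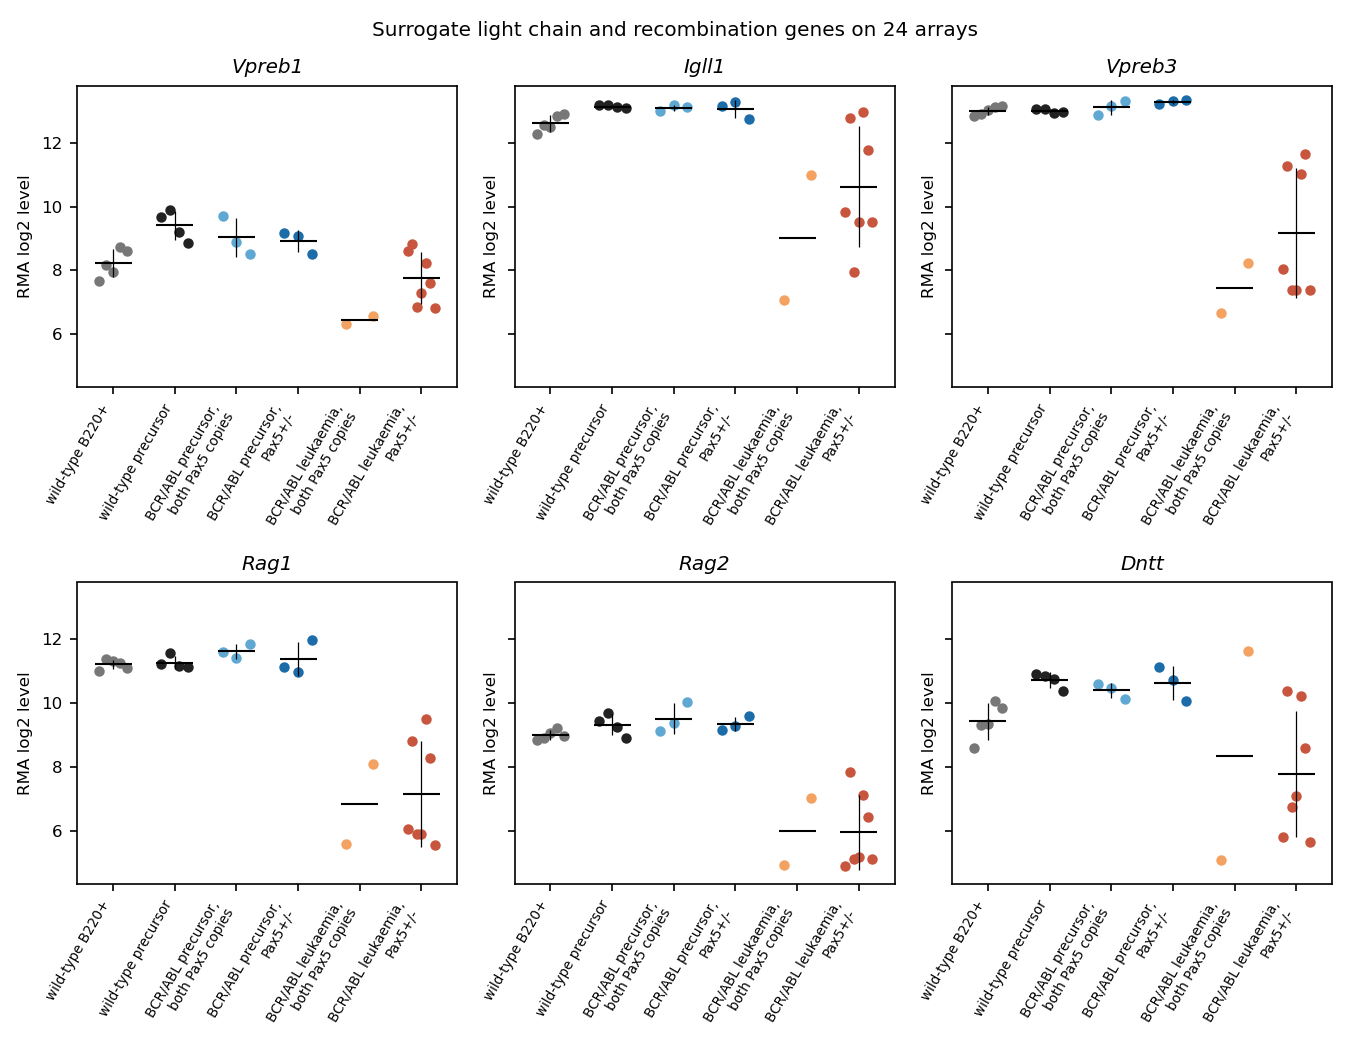
Deposited log2 levels (RMA, vertical axis) of the 6 genes in the 6 groups. Each point is 1 array, the horizontal line is the group mean, and the vertical bar is the SD for groups of 3 or more arrays. Rag1 lies between 10.99 and 11.98 on all 15 arrays without leukaemia and between 5.56 and 9.50 on the 9 leukaemia arrays.

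Within the Pax5-heterozygous leukaemias the arrays fell apart in the same way for most members. Arrays 2, 5 and 6 had the 3 highest levels of Vpreb3, Igll1, Rag1, Rag2 and Dntt, and arrays 1, 3, 4 and 7 the lower ones. These are descriptions of single arrays, and no groups were formed from them. The 2 leukaemias with both copies also differed, with every member higher on array 2 than on array 1. Where leaving out either array ended a call or turned a sign, the value without it is given beside the result or with the alternatives at the end, from a fit in which the lone array is assumed to vary like the other groups.

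Rag1, the catalytic subunit of the recombinase, was 11.02, 11.38, 11.32, 11.27 and 11.12 in the B220+ cells and 11.22, 11.56, 11.17 and 11.13 in the wild-type precursors. In the Pax5-heterozygous leukaemias it was 6.04, 8.81, 5.88, 5.88, 9.50, 8.28 and 5.56 on arrays 1 to 7, and 5.58 and 8.08 in the leukaemias with both copies. No leukaemia array reached the lowest level of either wild-type group. The Pax5-heterozygous leukaemias were lower than B220+ cells, at -4.08 ± 0.73 (SE), or 17.0-fold (limma adjusted p = 0.00103), and lower than wild-type precursors, at -4.13 ± 0.64 (adjusted p = 6.45e-05). In the leukaemias with both copies the differences were -4.39 ± 1.04 (adjusted p = 0.0101) and -4.44 ± 0.88 (adjusted p = 0.00136). The direction was the same without either array of that group, but the calls depended on array 1: without it limma gave -3.14 (adjusted p = 0.154) and -3.19 (adjusted p = 0.0599).

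Rag2, the partner subunit that reads chromatin marks and holds the complex in place, was 8.83, 8.92, 9.06, 9.23 and 8.98 in the B220+ cells and 9.44, 9.70, 9.26 and 8.90 in the wild-type precursors. Its levels on Pax5-heterozygous leukaemia arrays 1 to 7 were 4.88, 7.84, 5.10, 5.17, 7.12, 6.43 and 5.10, and those of the leukaemias with both copies 4.92 and 7.04. Again no leukaemia array overlapped a wild-type group. The Pax5-heterozygous leukaemias differed by -3.05 ± 0.54 from B220+ cells (8.30-fold lower, limma adjusted p = 0.000925) and by -3.38 ± 0.48 from wild-type precursors (adjusted p = 2.59e-05). Levels near 5 lie close to the bottom of the array, where the 5th percentile of gene means is 4.83, so the fall on arrays 1, 3, 4 and 7 may be understated. Leukaemias with both copies differed by -3.02 ± 0.77 (adjusted p = 0.0143) and -3.35 ± 0.66 (adjusted p = 0.00132). Without array 1 these were -1.97 (adjusted p = 0.211) and -2.29 (adjusted p = 0.0652), and array weights ended the first call (-3.05, adjusted p = 0.0542).

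The stretches of 250 bases before the RefSeq starts of Rag1 and Rag2 are shown because both genes moved together over the 24 arrays and their windows lie on chromosome 2 on opposite strands. Sequences are from RefSeq (GRCm38.p6), 5′ to 3′, and capitals mark matches on either strand to CANNTG (the E-box, bound by E2A family proteins), CCCNNGGG (an EBF1 core), TGTTTAC (a FOXO core), TGGGAA (an Ikaros core) or ATGCAAAT (the octamer, added after the sequences were seen). Rag1 is at chr2:101649533-101649782 on the minus strand and Rag2 at chr2:101624462-101624711 on the plus strand.
Rag1: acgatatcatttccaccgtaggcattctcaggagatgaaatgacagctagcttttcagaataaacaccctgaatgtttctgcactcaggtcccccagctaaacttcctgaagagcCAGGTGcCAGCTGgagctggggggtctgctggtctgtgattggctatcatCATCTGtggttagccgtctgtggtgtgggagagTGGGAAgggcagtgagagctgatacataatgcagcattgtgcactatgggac
Rag2: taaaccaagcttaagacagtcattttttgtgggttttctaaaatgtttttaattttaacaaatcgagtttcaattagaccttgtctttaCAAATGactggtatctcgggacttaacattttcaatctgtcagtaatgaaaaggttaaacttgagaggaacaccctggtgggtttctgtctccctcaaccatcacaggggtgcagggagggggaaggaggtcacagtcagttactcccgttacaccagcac
The Rag1 window holds 3 E-boxes of the form CAGNTG, starting 135, 128 and 85 bases before the start, and 1 Ikaros core at 52 bases. The Rag2 window holds 1 E-box at 161 bases, which is not of that form. Among 32851 RefSeq promoter windows of this length 66.2% hold CANNTG, 44.8% the form CAGNTG that is contained in it, and 21.6% TGGGAA. The FOXO core, found in 3.17% of windows, is in none of the 6 members' windows. Matches are letters in a window and no evidence of binding.

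Vpreb3 had the largest differences of the surrogate light chain genes. Its levels were 12.86, 12.91, 13.03, 13.11 and 13.15 in the B220+ cells and 13.06, 13.06, 12.95 and 12.99 in the wild-type precursors. On the Pax5-heterozygous leukaemia arrays 1 to 7 they were 8.03, 11.29, 7.38, 7.39, 11.03, 11.66 and 7.38, and on the arrays with both copies 6.66 and 8.23. All 9 leukaemia arrays lay below every array of the other groups. The Pax5-heterozygous leukaemias were lower than B220+ cells, at -3.85 ± 0.84 (14.4-fold, limma adjusted p = 0.00392) and lower than wild-type precursors, at -3.85 ± 0.72 (adjusted p = 0.000447). The leukaemias with both copies were lower too, at -5.56 ± 1.20 (47.3-fold, adjusted p = 0.00589) and -5.57 ± 1.00 (adjusted p = 0.000555). Without array 1 of that group they were -4.78 in both comparisons, with adjusted p = 0.078 against B220+ cells and 0.0194 against precursors.

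Igll1, which encodes the lambda5 part of the surrogate light chain, kept high levels in some leukaemias. It was 12.27, 12.56, 12.49, 12.83 and 12.92 in the B220+ cells and 13.19, 13.19, 13.12 and 13.08 in the wild-type precursors. The Pax5-heterozygous leukaemias had 9.82, 12.78, 7.96, 9.53, 12.96, 11.79 and 9.53, and those with both copies 7.07 and 10.99. Arrays 2 and 5 thus lay within or above the range of the B220+ cells, and the other 5 below it. The difference of -1.99 ± 0.89 from B220+ cells did not pass the test (limma adjusted p = 0.105, 95% interval -3.92 to -0.059). It passed with all 24 arrays in the fit (adjusted p = 0.033) and with array weights (adjusted p = 0.0284). Against wild-type precursors Igll1 was lower, at -2.52 ± 0.77 (adjusted p = 0.0167), a call lost when only these groups entered the fit (adjusted p = 0.0566). The leukaemias with both copies had -3.58 ± 1.27 against B220+ cells (adjusted p = 0.0632) and -4.11 ± 1.06 against wild-type precursors (adjusted p = 0.00906). Both values rested on array 1: without it they were -1.63 (adjusted p = 0.531) and -2.16 (adjusted p = 0.274), and without array 2 they were -5.54 (adjusted p = 0.0175) and -6.07 (adjusted p = 0.000952).

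The windows before Vpreb3 (chr10:75948050-75948299, plus strand) and Igll1 (chr16:16863986-16864235, minus strand) are shown because these genes separated the leukaemia arrays as the recombinase did. Build, source and the meaning of the capitals are as above.
Vpreb3: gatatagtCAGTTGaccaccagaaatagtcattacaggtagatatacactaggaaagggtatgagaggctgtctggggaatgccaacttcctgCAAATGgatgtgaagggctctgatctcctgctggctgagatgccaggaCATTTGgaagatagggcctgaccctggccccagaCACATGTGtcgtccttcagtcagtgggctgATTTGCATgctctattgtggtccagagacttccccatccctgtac
Igll1: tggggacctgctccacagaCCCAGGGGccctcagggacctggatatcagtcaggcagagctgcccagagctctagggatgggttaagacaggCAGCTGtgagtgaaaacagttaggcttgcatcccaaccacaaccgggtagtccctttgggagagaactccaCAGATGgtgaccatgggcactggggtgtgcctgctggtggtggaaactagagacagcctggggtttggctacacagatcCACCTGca
The Vpreb3 window holds 5 E-boxes, at 242, 157, 109, 75 and 73 bases before the start, of which the last pair overlap, and an octamer at 45 bases. The octamer is in 1.6% of all windows. The Igll1 window holds 3 E-boxes, all of the form CAGNTG, at 158, 87 and 8 bases, and an EBF1 core at 231 bases. That core is in 11.8% of all windows, and of the 6 members only Igll1 has it.

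Vpreb1, the other part of the surrogate light chain, differed least of the 6 genes between Pax5-heterozygous leukaemias and B220+ cells. Like Igll1 and Dntt it was not called in that comparison. Its levels were 7.68, 8.18, 7.97, 8.74 and 8.60 in the B220+ cells, 9.67, 9.90, 9.20 and 8.87 in the wild-type precursors, and 8.60, 8.82, 6.85, 7.30, 8.24, 7.61 and 6.82 in the Pax5-heterozygous leukaemias. The leukaemias with both copies had 6.30 and 6.58. Pax5-heterozygous leukaemia and B220+ arrays overlapped, with arrays 2, 1 and 5 the highest of the leukaemias, whereas both arrays of the leukaemias with both copies lay below all other arrays. Against B220+ cells the Pax5-heterozygous leukaemias differed by -0.48 ± 0.36 (limma adjusted p = 0.318) and the leukaemias with both copies by -1.79 ± 0.52 (adjusted p = 0.0264). The latter call was lost without array 1 (-1.65, adjusted p = 0.163) or array 2 (-1.93, adjusted p = 0.0659) of that group, without B220+ array 5 (-1.70, adjusted p = 0.0522) and with array weights (-1.85, adjusted p = 0.113). Against wild-type precursors Vpreb1 was lower in both, at -1.66 ± 0.36 (adjusted p = 0.00151) and -2.97 ± 0.49 (adjusted p = 0.000282).

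Mouse Vpreb1 has a near-identical copy, Vpreb2, on the same chromosome, and the probe set of either may pick up RNA of both. The copy reaches into the region before the gene, as 106 bases of the Vpreb1 window (chr16:16869256-16869361, minus strand) and of the Vpreb2 window (chr16:17980315-17980420, plus strand) show. Capitals here mark the 2 bases that differ, and 104 (98.1%) are identical. The windows were slid along each other without gaps to the highest identity, so these are not equal positions. The stretch lies next to the start in Vpreb1 and at the far end of the window in Vpreb2. Its shared E-box begins 88 bases before the Vpreb1 start and 232 bases before the Vpreb2 start.
Vpreb1: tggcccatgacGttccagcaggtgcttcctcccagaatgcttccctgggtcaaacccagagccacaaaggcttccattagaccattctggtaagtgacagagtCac
Vpreb2: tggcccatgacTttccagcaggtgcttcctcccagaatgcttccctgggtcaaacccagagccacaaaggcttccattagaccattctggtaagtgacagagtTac
Vpreb2 ranged from 6.72 to 8.13 in the Pax5-heterozygous leukaemias, from 7.16 to 7.64 in the B220+ cells and from 7.81 to 8.0 in the wild-type precursors. It was 6.85 and 7.18 in the leukaemias with both copies, where it was lower than in wild-type precursors by -0.91 ± 0.26 (limma adjusted p = 0.0185), a call lost without array 1 of that group (-0.74, adjusted p = 0.177). Its difference between Pax5-heterozygous leukaemias and B220+ cells was 0.016 ± 0.20 (adjusted p = 0.958), with no settled sign across scalings.

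Dntt, which encodes TdT, ranged widely among leukaemias. The Pax5-heterozygous leukaemias had 5.80, 10.39, 6.73, 7.10, 10.23, 8.58 and 5.63 on arrays 1 to 7, and the leukaemias with both copies 5.08 and 11.62. The B220+ cells had 8.59, 9.30, 9.33, 10.08 and 9.86, and the wild-type precursors 10.92, 10.86, 10.77 and 10.37. Arrays 2 and 5 of the former exceeded all B220+ cells, and array 2 of the leukaemias with both copies had the highest level of all 24 arrays. The leukaemias with both copies had an SD of 4.63, while the SEs below use 1 spread shared by all groups of a fit. For that group these SEs may be too small. Differences from B220+ cells were -1.65 ± 1.12 (limma adjusted p = 0.270) and, with both copies, -1.08 ± 1.60 (adjusted p = 0.649), which turned to 2.19 without array 1 (adjusted p = 0.424). Against wild-type precursors Dntt was lower in the Pax5-heterozygous leukaemias (-2.95 ± 0.96, adjusted p = 0.0248), a call lost without any 1 of wild-type precursor arrays 1, 2 and 3 (adjusted p = 0.0533 to 0.0578). In the leukaemias with both copies it had -2.38 ± 1.33 (adjusted p = 0.211), which was -5.65 without array 2 (adjusted p = 0.0033) and 0.89 without array 1 (adjusted p = 0.72).

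**Figure D2:**
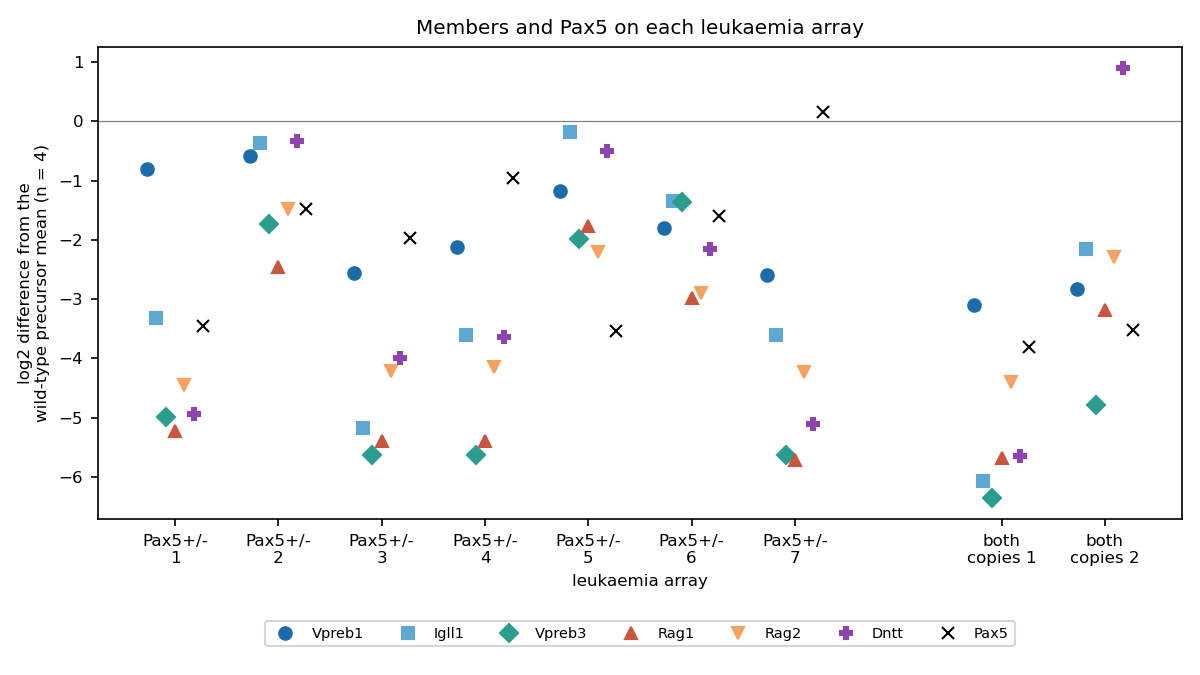
Log2 difference of each leukaemia array from the mean of the 4 wild-type precursor arrays (vertical axis) for the 6 members and Pax5, by array (horizontal axis). On arrays 2, 5 and 6 of the Pax5-heterozygous leukaemias the recombinase and surrogate light chain genes lie nearer to 0 than on arrays 3, 4 and 7, and Pax5 is highest on array 7.

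Pax5 itself did not order the leukaemias in this way. Its levels on Pax5-heterozygous arrays 1 to 7 were 8.45, 10.43, 9.93, 10.95, 8.37, 10.30 and 12.06. Array 7, with the highest Pax5, was the lowest of the 7 for Rag1 (5.56), Vpreb1 (6.82) and Dntt (5.63). Array 5, with the lowest Pax5, had the highest Rag1 (9.50) and Igll1 (12.96). Neither the labels nor the files say whether the Pax5 probe set also reads RNA of the disrupted allele. The B lineage mean was highest on arrays 2, 5 and 6 (10.32, 10.54 and 10.61, against 8.98 to 9.56 on the other 4). The T lineage list, of interest because immature T cells also use RAG and TdT, had means of 8.15, 7.28 and 7.80 on those arrays and 7.50, 6.94, 6.94 and 6.56 on the others, beside 6.63 to 6.73 in wild-type precursors. Of 11 T lineage markers 2 were called higher than in wild-type precursors and 0 lower by limma, where 12.7% of all genes were called higher, and the list median was 0.52. Ptcra, which marks immature T cells and was picked from the list after its values were seen, was at 5.91 to 6.17 against 6.14 to 6.42. These levels lie below the median gene mean of 7.02, the difference was not called, and the list as a whole went the other way. The share of immature T cells in these arrays was not tested. Array 2 of the leukaemias with both copies had the highest progenitor mean of all arrays, 8.96 against 7.56 on array 1 and 6.75 to 6.92 in wild-type precursors. The part of the progenitor and T lineage levels in these results was not tested.

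Each member was also read against the mean of the B lineage markers of its own array. Some markers, such as Ebf1 and Cd79a, are regulators or receptor partners described below, so this mean does not measure cell content alone. How far the members followed B lineage content was not tested. This scaling subtracts the mean of the 11 markers from each array. Only differences between arrays are meaningful on it, and it moves the median of all genes in the Pax5-heterozygous leukaemias against B220+ cells from -0.060 to 2.64. Vpreb3 (-1.15 ± 0.36, limma adjusted p = 0.00141) and Rag1 (-1.39 ± 0.36, adjusted p = 0.000115) were lower than in B220+ cells on it, while 0.105% of all genes were called lower and 99.4% in either direction. Rag2 was at -0.35 (adjusted p = 0.324). Vpreb1 turned to 2.22, Igll1 to 0.71 and Dntt to 1.04, each still below the all-gene median. In the leukaemias with both copies Vpreb3 (-2.21, adjusted p = 1.67e-05) and Rag1 (-1.04, adjusted p = 0.0431) were lower, Igll1 was at -0.23 (adjusted p = 0.65), and Vpreb1 (1.56), Rag2 (0.33) and Dntt (2.27) turned. Against wild-type precursors Vpreb3 (-1.76), Rag1 (-2.05) and Rag2 (-1.29) were lower in the Pax5-heterozygous leukaemias, and Vpreb1 turned to 0.42 (adjusted p = 0.207). Vpreb3 on this scale was 0.97, 0.49 and 1.05 on arrays 2, 5 and 6 and -2.17 to -1.13 on the other 4, so these 3 arrays stayed above the others. They did so for Igll1 and Rag1 as well, but not for Rag2, where array 6 (-4.18) lay below arrays 3 (-4.0) and 4 (-3.81), or for Dntt, where array 6 (-2.03) lay below array 4 (-1.88).

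**Figure D3:**
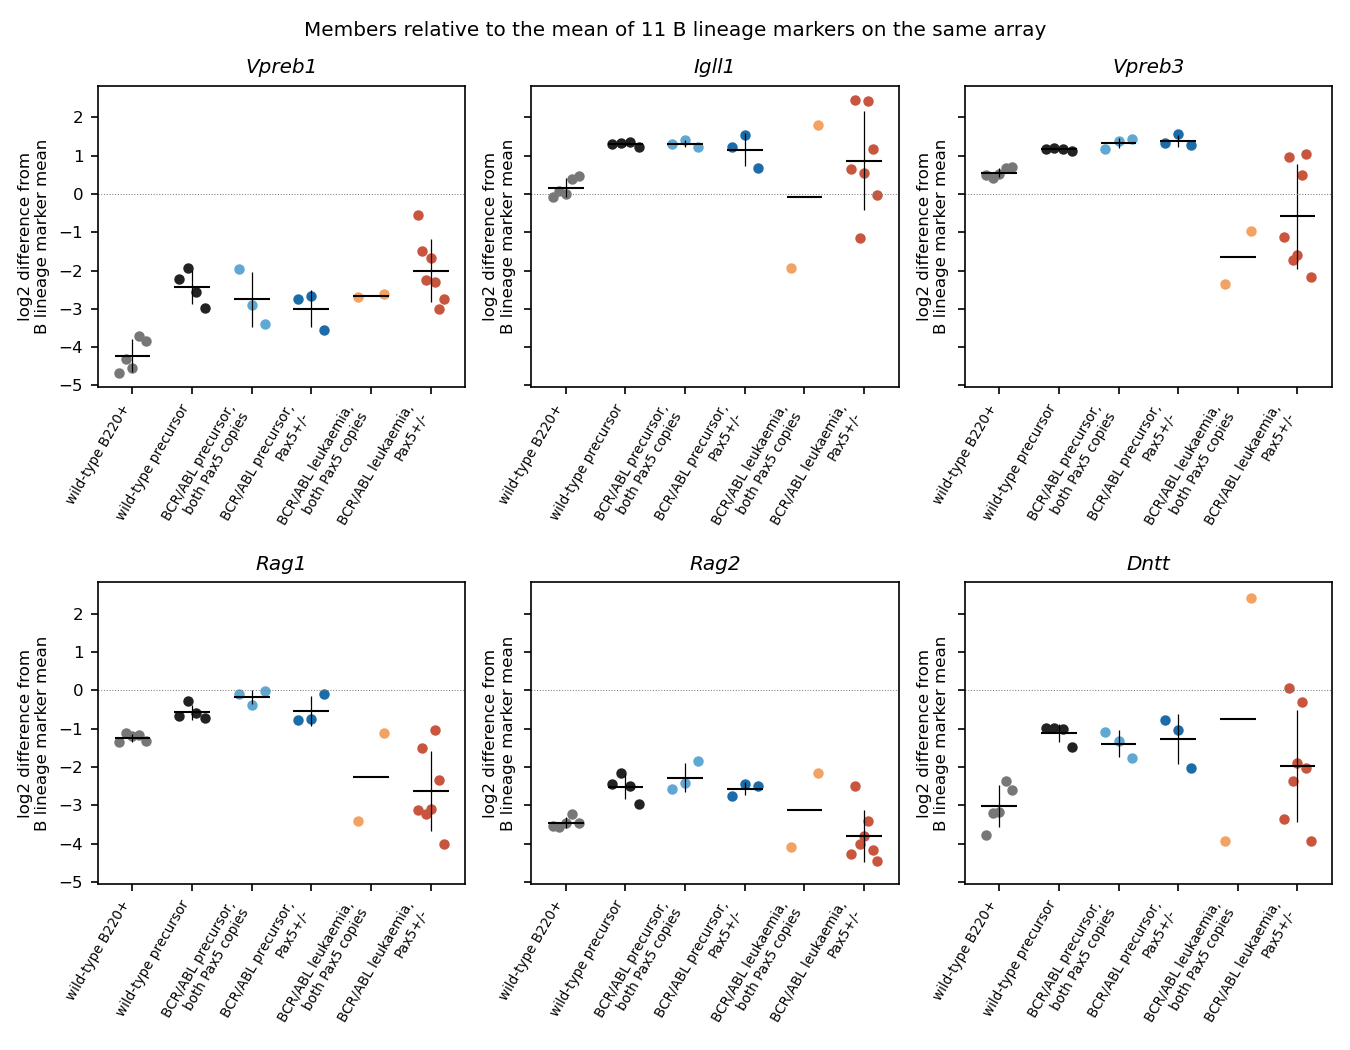
Log2 level of each member minus the mean of 11 B lineage markers on the same array (vertical axis), by group. Points are arrays, horizontal lines are means, and bars are SDs for groups of 3 or more. Vpreb1 lies higher in the leukaemias (-3.0 to -0.56) than in B220+ cells (-4.68 to -3.71), and Rag1 lies below all B220+ cells (-1.34 to -1.11) on each Pax5-heterozygous leukaemia array except array 5 (-1.04).

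The comparison between the leukaemias asked whether loss of a Pax5 copy went with a different level of these genes. Of the 6 genes 0 passed limma (1.87% of all genes were called), and 1 (Vpreb1) had an unadjusted p under 0.05. The share of all genes with an unadjusted p under 0.05 was not counted. Here and below, such counts of members are therefore descriptions only. Vpreb1 stood at 1.31 ± 0.49 in heterozygous minus both copies (adjusted p = 0.233, 95% interval 0.24 to 2.37), and its groups did not overlap. Vpreb3 had 1.72 ± 1.15 (adjusted p = 0.585), Igll1 1.59 ± 1.22 (adjusted p = 0.654) and Rag1 0.31 ± 1.00 (adjusted p = 0.945). Rag2 had -0.029 (interval -1.62 to 1.56) and Dntt -0.57 (interval -3.88 to 2.74), so differences of several fold in either direction lie within the intervals. With 2 arrays that differ from each other as much as these, leaving out array 1 turned Igll1 to -0.36 and Rag1 to -0.94, and leaving out array 2 turned Rag2 to 1.03 and Dntt to 2.70.

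The precursor groups compare the oncogene and the Pax5 copy number before leukaemia. Vpreb3 was 13.23, 13.31 and 13.35 in the Pax5-heterozygous precursors and 12.87, 13.17 and 13.32 in those with both copies. Igll1 was 13.15, 13.28 and 12.76, and 12.99, 13.19 and 13.13. Rag1 was 11.14, 10.99 and 11.98, and 11.60, 11.41 and 11.87. These ranges overlap those of the wild-type precursors, except that Vpreb3 in the heterozygous precursors lay just above them. Rag2 (9.17 to 9.58 and 9.12 to 10.05), Dntt (10.05 to 11.14 and 10.13 to 10.61) and Vpreb1 (8.51 to 9.17 and 8.51 to 9.72) overlapped as well. Pax5-heterozygous precursors differed from wild type by -0.49 to 0.28 over the 6 genes, and 0 passed limma (4.17% of all genes did). Only Vpreb3 had an unadjusted p under 0.05 (1 of 6 genes, 0.28 ± 0.096, adjusted p = 0.121), which passed with array weights (adjusted p = 0.0236). In precursors with both copies, where 27.1% of all genes were called, the 6 genes differed by -0.37 to 0.36 and 0 passed, with 0 at an unadjusted p under 0.05, although Vpreb3 passed without array 1 of that group (0.23, adjusted p = 0.0377). Between the oncogene-bearing precursors 0 of 6 passed limma (0.0251% of all genes) and 0 had an unadjusted p under 0.05, with differences of -0.25 to 0.23.

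Each leukaemia was also set against precursors of its own genotype. In the Pax5-heterozygous pair all 6 genes were lower in leukaemia (28.4% of all genes were), with Rag1 at -4.24 ± 0.70 (limma adjusted p = 0.000113), Vpreb3 at -4.13 ± 0.79 (adjusted p = 0.000442) and Rag2 at -3.40 ± 0.53 (adjusted p = 5.85e-05). Vpreb1 (-1.17), Igll1 (-2.44) and Dntt (-2.86) also passed, but lost the call when only these groups entered the fit (adjusted p = 0.0743, 0.0932 and 0.0684) and without heterozygous precursor array 1 or array 2. Dntt lost it further without any 1 of heterozygous precursor array 3 and leukaemia arrays 1, 3, 4 and 7 (adjusted p = 0.0521 to 0.0625), and Igll1 without precursor array 3 (adjusted p = 0.0512). On the B lineage scale Vpreb1 turned to 0.99 (adjusted p = 0.00909). In the pair with both copies 5 of 6 were lower (27.6% of all genes), led by Vpreb3 (-5.67 ± 1.05, adjusted p = 0.000378) and Rag1 (-4.80 ± 0.93, adjusted p = 0.000539), and Vpreb1 turned to 0.095 on the B lineage scale. Dntt had -2.05 ± 1.41 (adjusted p = 0.239), -5.32 without leukaemia array 2 (adjusted p = 0.00494) and 1.22 without array 1. Igll1 (-4.07 ± 1.12, adjusted p = 0.00664) did not pass without array 1 (-2.11, adjusted p = 0.191) or with only these groups in the fit (adjusted p = 0.0798). The change in the Pax5 copy effect from precursor to leukaemia passed limma for 0 of 6 genes (0.692% of all genes) and reached an unadjusted p under 0.05 for 1, Vpreb1, at 1.43 ± 0.65 (adjusted p = 0.361).

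**Figure D4:**
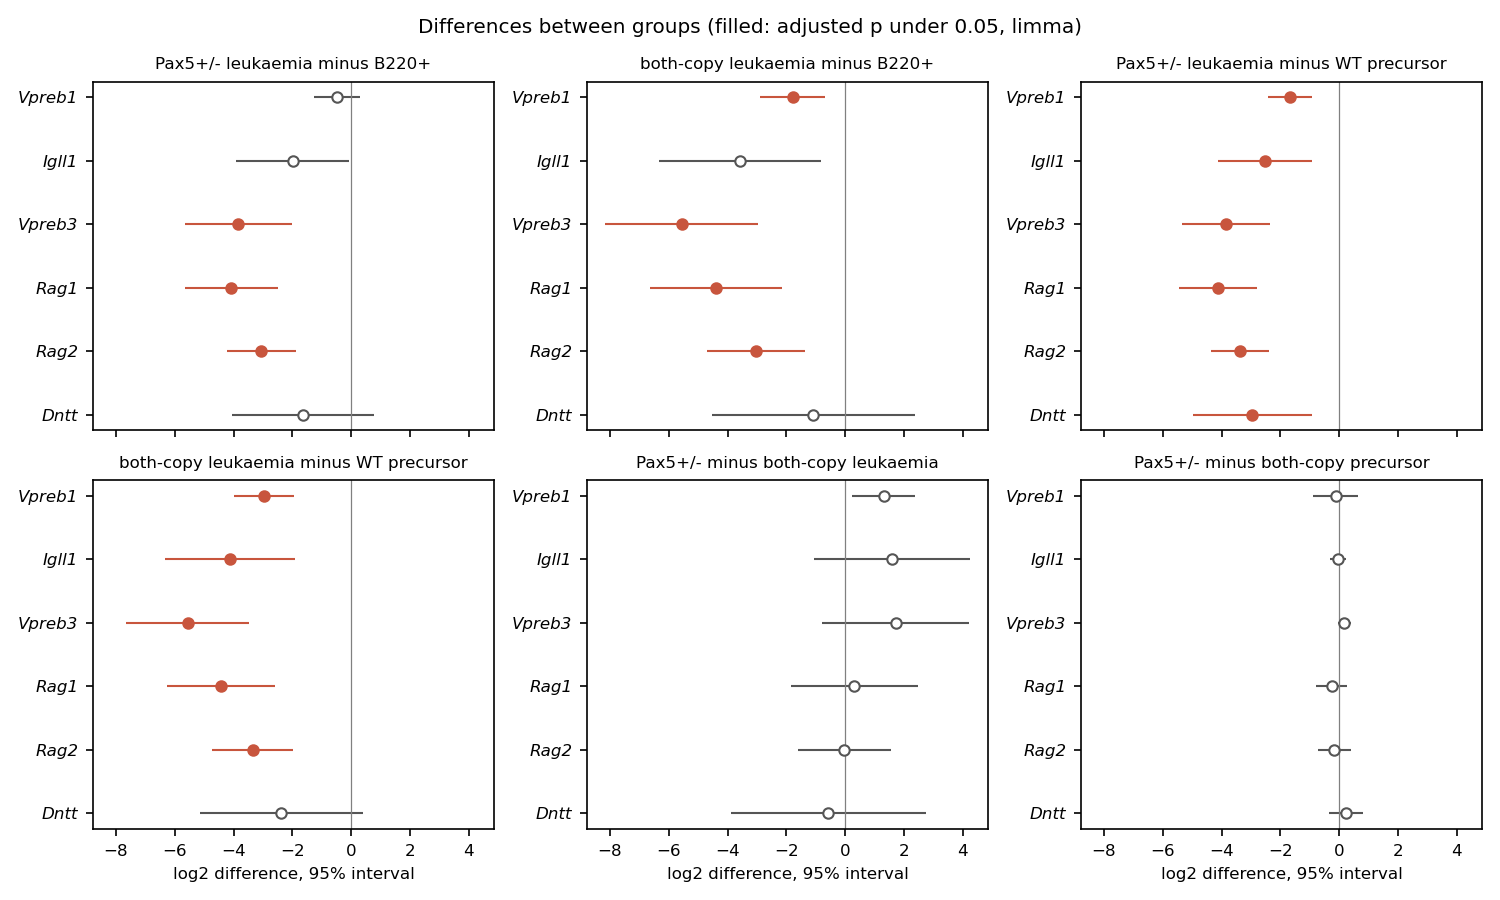
Log2 differences between groups (horizontal axis) for the 6 genes with 95% intervals, 1 panel per comparison. Filled points passed limma at an adjusted p under 0.05. Rag1, Rag2 and Vpreb3 are filled in each comparison of leukaemias with wild-type cells, and no member is filled in comparisons between leukaemias or between precursors.

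Between the wild-type groups the largest differences were those of Vpreb1, Igll1 and Dntt. In pro-B and pre-B cells minus B220+ cells they were 1.18 ± 0.38 (limma adjusted p = 0.0613), 0.53 ± 0.82 (adjusted p = 0.826) and 1.30 ± 1.03 (adjusted p = 0.564) in that order. The arrays did not overlap for these 3 genes, but 0 of 6 passed in the fit of all 24 arrays (8.84% of all genes did), whose spread includes the leukaemias, and 1 (Vpreb1) had an unadjusted p under 0.05. Vpreb1 also passed with the replicate number as a block (1.26, adjusted p = 0.0229). With only the 9 wild-type arrays in the fit these 3 passed as higher in precursors (adjusted p = 0.00544, 0.00687 and 0.00384), while 12% of all genes were called higher and 24% in either direction. Rag1 (0.048), Rag2 (0.32) and Vpreb3 (0.0022) passed in neither fit. Over the 6 groups, the members' levels were ordered with precursors and B220+ cells above leukaemias. For Rag1, Rag2 and Vpreb3 the step between the lowest non-leukaemic group and the highest leukaemia group was the only step without overlap between neighbours.

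Genes for the proteins that work with the recombinase went both ways. In this comparison, Pax5-heterozygous leukaemias against wild-type precursors, 19.6% of all genes were called lower and 12.7% higher. Of 17 measured genes of recombination and end joining 9 were lower and 2 higher in Pax5-heterozygous leukaemias than in wild-type precursors, with a list median of -0.33 beside -0.051 over all genes. Polm, the DNA polymerase mu that is the closest relative of TdT, had the largest fall of the list. It was 7.00, 6.59, 6.67, 6.41, 6.23, 6.90 and 6.26 on the Pax5-heterozygous arrays and 7.34 and 6.60 with both copies, against 10.12 to 10.63 in wild-type precursors and 10.65 to 11.03 in B220+ cells. The difference from wild-type precursors was -3.78 ± 0.16 (limma adjusted p = 1.77e-12), and with both copies -3.39 ± 0.22 (adjusted p = 6.47e-09). Arrays 2 and 5, high in Dntt, had 6.59 and 6.23, and arrays 1 and 7, low in Dntt, had 7.00 and 6.26. Poll, the related polymerase lambda, had a difference of 0.51 ± 0.18 (adjusted p = 0.0374), a call lost under quantile or median scaling, with the replicate block (0.41, adjusted p = 0.11) and without any 1 of 7 arrays. Lig4, the ligase that seals the joints, was 7.35, 8.07, 6.53, 7.02, 9.32, 7.81 and 7.41 on the 7 arrays and 6.82 and 8.0 with both copies, lower than wild-type precursors, at -2.97 ± 0.34 (adjusted p = 2.09e-06). Arrays 2, 5 and 6 were again the highest. Ezh2 (-0.97 ± 0.12, adjusted p = 6.34e-06) and the end-joining factor Nhej1 (-0.80 ± 0.11, adjusted p = 1.94e-05) were lower by less, and Nbn, which senses breaks, was higher (0.59 ± 0.15, adjusted p = 0.00446), though not as the mean of all its probe sets (0.19, adjusted p = 0.101). In leukaemias with both copies, where 12% of all genes were lower and 9.36% higher, 5 of the 17 were lower and 1 higher (median -0.19), and Xrcc6, a subunit of the Ku end-binding complex, was among the lower ones (-1.60 ± 0.28, adjusted p = 0.000424).

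The surrogate light chain signals through partners in the pre-B cell receptor. Of 13 measured genes of this receptor and its signalling 6 were lower and 3 higher in Pax5-heterozygous leukaemias than in wild-type precursors (median -0.56). Of all genes 19.6% were called lower and 12.7% higher there, with a median of -0.051. Only the called genes of smallest adjusted p, all lower, and Ighm are described, so the higher ones are not. The kinase Syk fell evenly (-1.71 ± 0.12, limma adjusted p = 3.35e-09), with 9.78 to 10.29 on the leukaemia arrays against 11.70 to 11.81. The signalling chains Cd79b (-1.21 ± 0.19, adjusted p = 6.58e-05) and Cd79a (-2.35 ± 0.40, adjusted p = 0.000188), which carry the receptor's signal into the cell, and the kinase Btk (-0.56 ± 0.090, adjusted p = 0.000134) were lower. Ighm, the mu heavy chain that pairs with the surrogate light chain, had -0.78 ± 0.44 (adjusted p = 0.186; -1.26 and adjusted p = 0.0142 as the mean of all its probe sets) and ranged from 8.44 to 11.67. Its highest leukaemia arrays were 6, 3 and 5 (11.67, 11.37 and 11.29), so array 3, where Vpreb3 and Igll1 were low, had as much Ighm as the wild-type precursors (10.94 to 11.25). In leukaemias with both copies 8 of 13 were lower and 1 higher (median -0.87), beside 12% and 9.36% of all genes (median -0.061).

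Of 21 genes for factors known to regulate the members, 14 were lower and 1 higher in Pax5-heterozygous leukaemias than in wild-type precursors, with a median of -1.08. Of all genes 19.6% were called lower and 12.7% higher, with a median of -0.051. In leukaemias with both copies the counts were the same, 14 and 1, with a median of -1.30. There 12% of all genes were called lower and 9.36% higher, with a median of -0.061. The lower ones with the smallest adjusted p were Ikzf3, the Aiolos repressor (-3.48 ± 0.23, limma adjusted p = 2.02e-09), Tcf3, which encodes the E2A proteins that bind E-boxes (-1.85 ± 0.13, adjusted p = 3.19e-09), Lef1 (-3.68 ± 0.36, adjusted p = 2.93e-07) and Foxo1, an activator of Rag1 and Rag2 (-2.03 ± 0.21, adjusted p = 8.21e-07). Ebf1, an activator of the surrogate light chain genes, was lower, at -2.27 ± 0.39 (adjusted p = 0.000207). Its levels on arrays 1 to 7 were 9.55, 11.12, 8.37, 10.25, 11.72, 10.90 and 9.77, with arrays 5, 2 and 6 the highest. Foxo1 was 8.87, 9.46, 8.81, 8.32, 9.90, 9.46 and 8.58 on the same arrays, and the same 3 were highest. So were they for Irf4, Myb and Sox4 of this list and for the B lineage mean, which includes Ebf1. The trait is thus not particular to Ebf1 and Foxo1, and its cause was not tested. Tcf3 (9.22, 9.16, 9.08, 9.60, 9.92, 9.59 and 9.79) did not separate these 3 arrays from the others. Id2, an inhibitor of E2A proteins, was the gene that was higher (1.25 ± 0.28, adjusted p = 0.00191), and in leukaemias with both copies it was Gfi1b, a repressor that acts on Rag genes (2.33 ± 0.48, adjusted p = 0.00183).

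**Figure D5:**
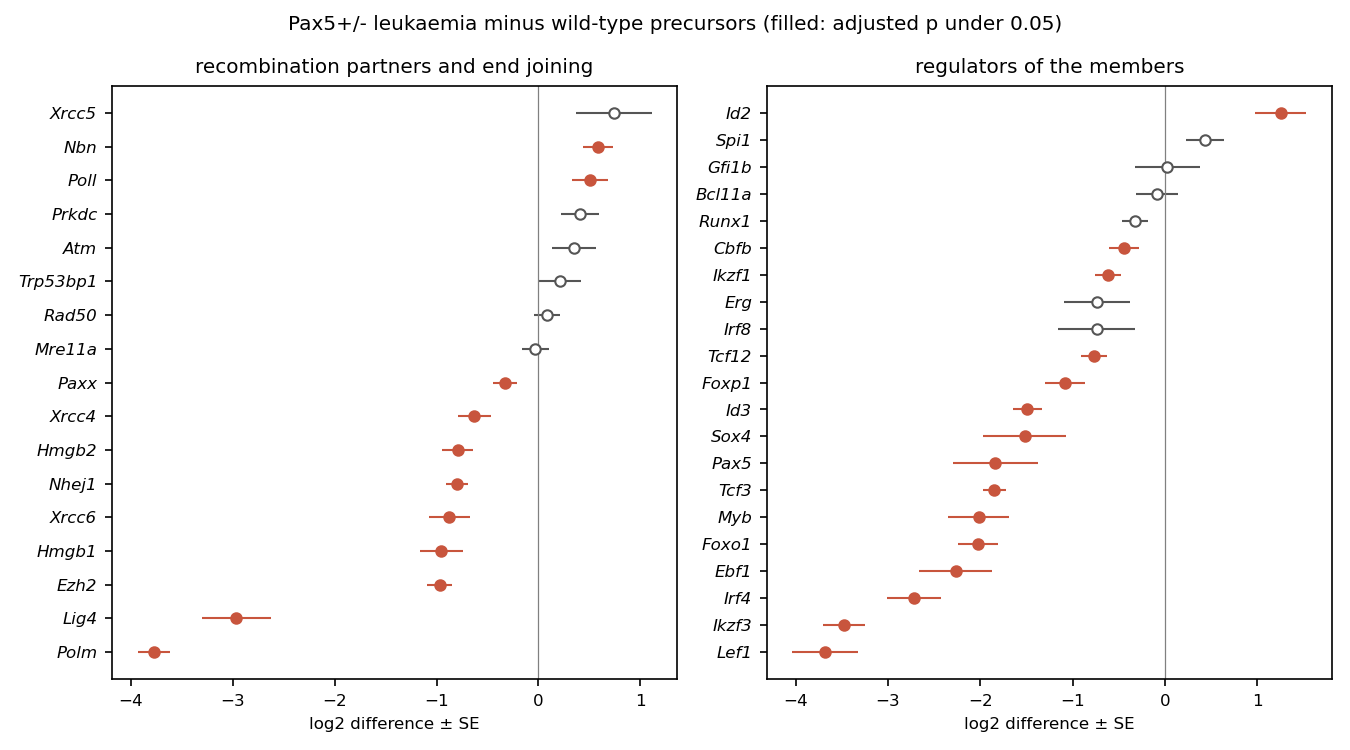
Log2 difference between Pax5-heterozygous leukaemias and wild-type precursors (horizontal axis, ± SE) for the measured partners and regulators of the members. Filled points passed limma at an adjusted p under 0.05. Polm (-3.78), Lef1 (-3.68) and Ikzf3 (-3.48) lie furthest to the left, and Id2 (1.25) is among several genes to the right.

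Over the 24 arrays the members most alike were Rag1 and Rag2 (Pearson r = 0.986), followed by Vpreb3 and Rag1 (0.972), and Vpreb1 and Dntt were the least alike (0.66). These coefficients are descriptions over arrays that share group differences and a scaling. Of all genes, Lig4 (0.975) and Tifa (0.973) came next after Rag2 in likeness to Rag1. Vpreb3 was most like Slamf7 (0.979) and Cd72 (0.973). Igll1 was most like Mex3b (0.943), and Dntt also was (0.891). For Dntt the next was Cd93 (0.875), an early B cell surface protein. Vpreb1 was most like Pde2a (0.908) and Plcg1 (0.88), neither of which was among the 4 nearest genes of another member.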

How the data were processed

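Total RNA was extracted with Trizol, biotin-labelled and hybridised to 24 Affymetrix mouse gene arrays, per the labels' protocols. The deposited values are log2 levels of 35556 probe sets made by the authors with RMA and the package oligo, as the submitters' processing notes state without a version. The RMA method subtracts background, equalises the arrays by quantiles and combines the probes of a set. The array's number of replicates limits the precision, and dates or batches are not given.

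Of the probe sets, 21789 had 1 gene symbol, 1621 several and 12146 none in the platform annotation. Those with 1 symbol gave 19938 genes, each by its probe set with the highest mean. Sequences came from RefSeq (GRCm38.p6), in which all 6 members matched.

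Groups were compared with limma 3.58.1 (R 4.3.3; lmFit, contrasts.fit, eBayes, two-sided, Benjamini-Hochberg over all genes, threshold 0.05). The 14 arrays of leukaemias and B220+ cells shared 1 fit, the 10 precursor arrays another, and comparisons across these sets used all 24. The code was tested on simulated data. Alternatives were other scalings, array weights, a dim filter, other samples in the fit, a replicate block and leaving out each array, and for named genes outside the 6 they were added after the data were seen.

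The members and gene lists were chosen with earlier results of these data known. Each list was illustrated by at most 4 called genes, those of smallest adjusted p. Poll, Nbn, Ighm, Ebf1, Id2, Gfi1b, Ptcra, Irf4, Myb and Sox4 were named after their values were seen. Likeness was ranked by Pearson r over 24 arrays, naming up to 4 genes per member.

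Replicate numbers recur across groups. Deviations from group means of same-numbered oncogene-bearing precursors correlated at 0.208, 0.213 and 0.25, above 0.1 in all 3 pairs, while a common litter or day is stated nowhere in the labels. In that pair of groups the highest values with unlike numbers were 0.13, -0.0327 and -0.0363, each below the value for the same number. Elsewhere unlike numbers reached 0.441, between precursors with both copies and wild type. The main fits use no pairing, and the replicate block is among the alternatives.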

Additional observations from a re-analysis of the deposited data

How the results depend on the processing

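With quantile, median or cyclic loess scaling, an intensity trend in the prior spread or the mean of all probe sets, no member that had passed lost its call or changed direction. Of 224 recomputed counts of members past the test 205 lay within 1.5 times the main count, and of 1344 recomputed member differences 1216 kept direction and side of the threshold, 40 lost the call, 20 gained it and 68 changed sign. Unless a cause is named, the cause was not tested.

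Centring on the B lineage markers moved the counts of members past the test to 5 (Pax5-heterozygous leukaemias against B220+ cells), 3 (against wild-type precursors), 3 and 3 (leukaemias with both copies against wild-type precursors and against their own precursors) and 2 (wild-type precursors against B220+ cells). In that order, 19818, 19758, 19754, 19741 and 1481 of all 19938 genes were called on this scale. The 5 members were Vpreb3 and Rag1 as lower and Vpreb1, Igll1 and Dntt as higher. By its construction this scaling adds the fall of those markers to every gene of leukaemic marrow. It turned Vpreb1 (2.22), Igll1 (0.71) and Dntt (1.04) in Pax5-heterozygous leukaemias and Vpreb1 (1.56), Rag2 (0.33) and Dntt (2.27) in those with both copies, against B220+ cells. It also turned Vpreb1 (0.42) and Dntt (0.36, both copies) against wild-type precursors, Vpreb1 (0.99) in the heterozygous and Vpreb1 (0.095) and Dntt (0.64) in the other leukaemias against their own precursors. Small uncalled differences turned as well: Rag1 between the leukaemias (-0.35), Rag2 in heterozygous precursors (-0.048), Igll1 in precursors with both copies (0.0078) and Rag2 in the change of the Pax5 copy effect (-0.40).

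With array weights, leukaemias with both copies had 2 members past the test against B220+ cells. There was 1 in heterozygous precursors against wild type and 1 between the wild-type groups. Uncalled differences turned: Rag2 between leukaemias (0.051), Rag1 (-0.039), Rag2 (-0.13) and Dntt (0.22) in heterozygous precursors against wild type, Vpreb1 (0.13) and Igll1 (0.0061) between the oncogene-bearing precursors, and Vpreb3 (-0.031) between wild-type groups. Between the wild-type groups 1 member passed with quantile scaling, with cyclic loess and without dim genes, and 3 with only those arrays in the fit. Heterozygous leukaemias against their own precursors had 3 with only those groups. Other uncalled signs turned for Igll1 in precursors with both copies (0.12, loess) and between oncogene-bearing precursors (0.014, median centring), for Vpreb3 between wild-type groups (-0.015 with loess, -0.046 with median centring, -0.026 with quantiles) and for Rag1 there (-0.00014, median centring).

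The replicate number as a block brought 1 member past the test between the wild-type groups (Vpreb1, 1.26, adjusted p = 0.0229 by limma) and turned Rag2 between leukaemias (0.15) and in heterozygous precursors (-0.12). This block changed no other call of the 6 members, and of the other named genes it ended that of Poll (0.41, adjusted p = 0.11).

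Leaving out each array gave 0 to 4 members past the test for B220+ cells against leukaemias with both copies, 2 to 6 against wild-type precursors and 4 to 6 against their own precursors. It gave 3 to 3 in heterozygous leukaemias against B220+ cells, 5 to 6 against wild-type precursors and 3 to 6 against their own precursors, and 0 to 1 in precursors with both copies. The other comparisons stayed at 0. Signs turned within these ranges. Between leukaemias they were -0.36 to 3.55 (Igll1), -0.94 to 1.55 (Rag1), -1.09 to 1.03 (Rag2) and -3.85 to 2.70 (Dntt). For Dntt with both copies they were -4.35 to 2.19 (B220+ cells), -5.65 to 0.89 (wild-type precursors) and -5.32 to 1.22 (own precursors). In heterozygous precursors they were -0.19 to 0.073 (Igll1), -0.20 to 0.29 (Rag1), -0.12 to 0.15 (Rag2) and -0.35 to 0.19 (Dntt), and in precursors with both copies -0.086 to 0.014 (Igll1) and -0.082 to 0.39 (Rag2). Between these precursors they were -0.39 to 0.22 (Vpreb1), -0.15 to 0.11 (Igll1), -0.36 to 0.10 (Rag2) and -0.019 to 0.52 (Dntt). Between wild-type groups they were -0.036 to 0.036 (Vpreb3) and -0.049 to 0.096 (Rag1), and for the change of the Pax5 copy effect -0.33 to 3.59 (Igll1), -0.69 to 1.81 (Rag1), -0.92 to 1.19 (Rag2) and -4.08 to 2.47 (Dntt).

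For 22 differences of other named genes and Vpreb2, tried after seeing the data, 404 of 442 recomputed values kept direction and side of the threshold, 17 lost the call, 3 gained it and 18 changed sign. B lineage centring turned Ezh2 (1.12), Nhej1 (1.29), Syk (0.38), Cd79b (0.88), Btk (1.52), Ighm (1.31), Tcf3 (0.24) and Foxo1 (0.060) in heterozygous leukaemias against wild-type precursors, and Vpreb2 (1.83) and Xrcc6 (1.14) with both copies. Vpreb2 against B220+ cells turned to -0.14 with quantiles, -0.12 with median centring and ranged from -0.097 to 0.14 as arrays were left out.

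The balance over all genes moved with the scaling. In heterozygous leukaemias against B220+ cells 40.5% of 6336 called genes were higher, 16.4% of 12413 after median centring, which shifts the median gene from -0.060 to -0.20, and 54.1% after cyclic loess. Against wild-type precursors the shares were 39.3% of 6426, 21% of 9661 and 54.5%. For leukaemias with both copies they were 44.4% of 4260, 19.1% of 8809 and 56.5% against B220+ cells. The planned correlations over the 7 heterozygous leukaemia arrays and their 4 alternatives were not run, because arrays 2, 5 and 6 lie apart from the others and neither cluster holds 6 arrays. Values near the bottom of the array limit how far a fall can be measured.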
